A study of Mus musculus with 6 samples.

Results

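The circadian clock of the mouse ventricle was read from 10 genes taken by their symbols, with no threshold on their values though with earlier results of these data known, out of 21154 genes with a probe set of their own on the array. They are Arntl and Clock, the activators of the clock, Dbp, Tef and Hlf, the proline and acidic amino acid-rich bZIP factors that carry its rhythm to other genes, the repressors Per1, Per2 and Cry1, and Nr1d1 and Nr1d2, which encode the REV-ERB receptors. Each was found by its gene symbol, and each had 1 transcript cluster that named no other gene. RNA came from ventricles of 6 mice in 3 groups of 2 arrays, which the labels call biological replicates, and was hybridised to Clariom S mouse arrays. Control mice carried αMHC-tTA alone, a transgene in which the α-myosin heavy chain promoter drives the tetracycline transactivator in heart muscle cells. ATF6α-cn and ATF6β-cn mice carried the same transactivator plus a responder transgene, also on a modified α-myosin heavy chain promoter, that encodes the constitutively nuclear N-terminus of mouse ATF6α or ATF6β. Mice of the transgenic experiment were C57BL/6, 8 weeks old and 4 weeks without doxycycline, the drug in the chow that holds the transgene silent. Neither the labels nor the methods state the hour of the day at which each heart was taken or the sex of the mouse behind each array.

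The clock is a feedback loop that runs in nearly every cell. BMAL1, the protein of Arntl, pairs with CLOCK, binds E-boxes and switches on the genes of PER, CRY, REV-ERB and the proline and acidic amino acid-rich factors. PER and CRY then block BMAL1 and CLOCK, and REV-ERB represses Arntl itself, so in a heart collected through the day Arntl is high when Dbp and Nr1d1 are low. DBP, TEF and HLF bind D-boxes and pass the rhythm on to genes of metabolism, and the clock of heart muscle cells is known to set daily rhythms in fuel use and in ion channels.

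The DNA elements of this loop were looked for in the promoter windows that RefSeq gives for mouse assembly GRCm38.p6, 250 bases before to 50 bases after a transcription start. Windows were found for 9 of the 10 genes, 14 windows in all. The E-box CACGTG, sought on both strands, lay in a window of Cry1, Per1 and Tef, and in 7.15% of all 32851 windows. The E-prime box CACGTT lay in windows of Cry1 and Nr1d1 and in 4.68% of all windows. The site TAGGTCA, which REV-ERB and its activating rivals of the ROR family bind, lay in a window of Arntl and in 2.61% of all windows, and the cAMP response element TGACGTCA in the window of Hlf and in 1.79%. These stretches are shown as examples of the elements through which the loop is known to work, in the member windows that hold them. They read 5′ to 3′ along the gene, with every motif searched for in capitals.
Per1 E-box, chr11:69098763-69098808, plus strand, motif starting 166 bases before the transcription start: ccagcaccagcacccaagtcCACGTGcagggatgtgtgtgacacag
Tef E-box of window 1, chr15:81802526-81802571, plus strand, motif starting 127 bases before the transcription start: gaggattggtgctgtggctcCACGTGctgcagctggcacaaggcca
Tef E-box of window 2, chr15:81811256-81811301, plus strand, motif starting 138 bases before the transcription start: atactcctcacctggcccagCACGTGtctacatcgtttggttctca
Cry1 E-prime box and E-box, chr10:85185108-85185153, minus strand, motif starting 79 and 60 bases before the transcription start: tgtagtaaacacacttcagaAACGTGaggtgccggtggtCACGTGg
Nr1d1 E-prime box, chr11:98775380-98775425, minus strand, motif starting 28 bases before the transcription start: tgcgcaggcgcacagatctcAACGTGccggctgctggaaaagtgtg
Arntl ROR and REV-ERB site, chr7:113207530-113207558, plus strand, motif starting 31 bases after the transcription start: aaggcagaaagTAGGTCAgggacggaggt
Hlf cAMP response element, chr11:90390908-90390937, minus strand, motif starting 9 bases before the transcription start: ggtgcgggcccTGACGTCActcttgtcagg
No member window held the D-boxes TTATGTAA (0.938% of all windows) or TTACGTAA (0.119%), the site TGGGTCA (3.98%) or the ATF6 element TGACGTGG (0.676%). No other form of ATF6 element was searched for. A match describes the letters and is not a bound site.

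The arrays were alike in scale, with median log2 signals from 5.58 to 5.64 and a correlation across clusters of 0.990 to 0.991 between the replicates of each group. In a list of 12 ATF6 and endoplasmic reticulum genes, limma called 8 higher in ATF6α-cn than in control, and 11 in ATF6β-cn. Of all clusters 0.0946% and 1.1% were called in either direction. Among the 11 was Atf6b, the gene of the transgene itself. Atf6b was at 14.80 and 14.81 in ATF6β-cn and at 8.63 to 9.18 on the other 4 arrays. Atf6 was no higher in ATF6α-cn (12.70 and 13.07) than in control (13.09 and 13.04) on the arrays. It is not stated whether its probes lie in the part that the transgene encodes. By quantitative PCR the paper reports raised Atf6 message in ATF6α-cn hearts against wild-type control hearts. Derl3, an ATF6 target of protein degradation, was at 11.32 and 10.89 in ATF6α-cn, 4.96 and 4.86 in control, and 7.02 and 7.27 in ATF6β-cn. The defining markers of heart muscle cells were far above background on every array (mean of 8 genes 18.72 to 18.81, and Ryr2, the lowest of them, 14.33 to 14.73). ATF6α-cn replicate 2 stood apart in many of the clock genes, so the main differences that rest on it are followed by their value without it.

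No clock gene passed the test in any comparison (limma over 22206 transcript clusters, Benjamini-Hochberg adjusted p under 0.05). Of all clusters 0.0946% were called in ATF6α-cn against control, 1.1% in ATF6β-cn against control and 0.27% in ATF6β-cn against ATF6α-cn, so 0 of 10 is close to the background and does not show that the genes were the same in the groups. At an unadjusted limma p under 0.05, Arntl and Clock were higher in ATF6α-cn than in control (2 of 10, against 8.92% of all clusters), Nr1d1 was higher in ATF6β-cn than in control (1 of 10, against 13.9%), and Arntl was lower in ATF6β-cn than in ATF6α-cn (1 of 10, against 9.67%). With 2 arrays a group an exact permutation test cannot go below p = 0.333, so the fit across all clusters carries the tests. Both lines are set against the same 2 control arrays, and each SE pools the spread of all 3 groups. The pattern that the signals did show was between arrays, and is described gene by gene. All levels are log2 signals, on which 1 unit is a 2-fold difference, and levels of different genes are not compared.

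**Figure D1:**
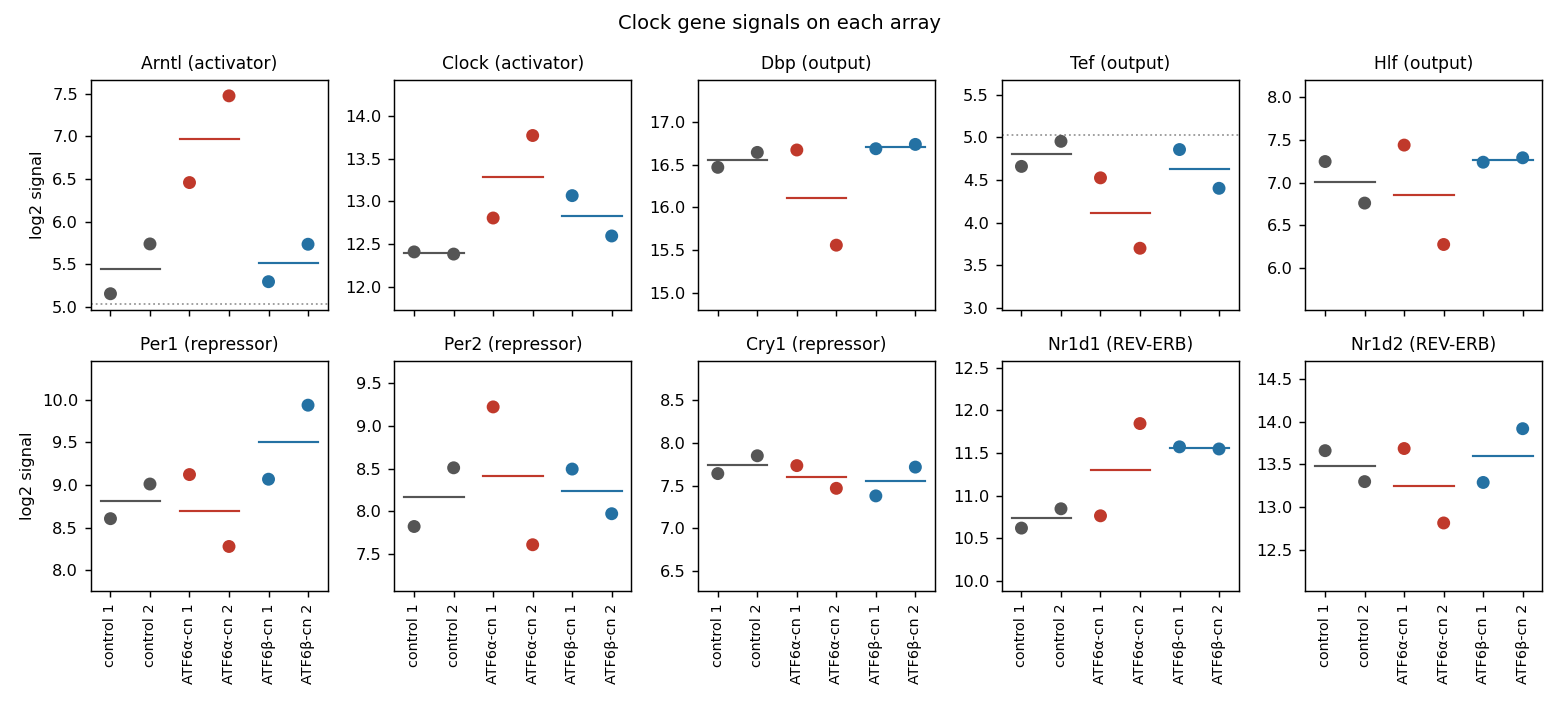
Log2 signal (y axis) of the 10 clock genes on each of the 6 arrays (x axis), with points coloured by group, short lines at group means, the dotted line at the background level of 5.03 and all panels spanning the same number of log2 units. ATF6α-cn 2 is the highest array for Arntl (7.48), Clock (13.77) and Nr1d1 (11.85) and the lowest for Dbp (15.56), Tef (3.70), Hlf (6.27), Per1 (8.28), Per2 (7.61) and Nr1d2 (12.81).

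Arntl, which encodes BMAL1, was at 5.15 and 5.74 in control, 6.46 and 7.48 in ATF6α-cn, and 5.30 and 5.73 in ATF6β-cn. Both ATF6α-cn arrays lay above all 4 others, and control and ATF6β-cn overlapped. The mean log2 difference of ATF6α-cn from control was 1.52 (SE 0.36, 95% interval 0.69 to 2.35, unadjusted p = 0.0026, adjusted p = 0.296 by limma), a 2.87-fold difference. It was the largest of the 10 genes and stayed positive without either array of ATF6α-cn, at 2.03 with replicate 2 alone and at 1.01 with replicate 1 alone (adjusted p = 0.593 by limma). ATF6β-cn differed from control by 0.07 (SE 0.36, 95% interval -0.76 to 0.90, adjusted p = 0.963 by limma) and from ATF6α-cn by -1.45 (SE 0.36, adjusted p = 0.206 by limma), or by -0.94 without ATF6α-cn replicate 2. The background level, under which 95% of 1410 odour and pheromone receptor genes lay, which the heart should not use, was 5.03, so Arntl in control and ATF6β-cn stood near it.

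Clock, the partner of BMAL1, was at 12.41 and 12.38 in control, 12.81 and 13.77 in ATF6α-cn, and 13.07 and 12.60 in ATF6β-cn. All 4 transgenic arrays lay above both control arrays, and the 2 lines overlapped. The mean difference from control was 0.89 in ATF6α-cn (SE 0.33, 95% interval 0.14 to 1.65, unadjusted p = 0.0248, adjusted p = 0.498 by limma) and 0.44 in ATF6β-cn (SE 0.33, 95% interval -0.31 to 1.19, adjusted p = 0.631 by limma). Without ATF6α-cn replicate 2 the first difference was 0.41, close to that of ATF6β-cn. The difference of ATF6β-cn from ATF6α-cn was -0.46 (SE 0.33, adjusted p = 0.730 by limma), and 0.03 without that array.

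Dbp, whose protein is the D-box activator best known as a clock output, was at 16.47 and 16.65 in control, 16.67 and 15.56 in ATF6α-cn, and 16.69 and 16.74 in ATF6β-cn. A single array was low: the other 5 lay within 0.27 of each other, and ATF6α-cn replicate 2 was 0.91 below the lowest of them. The mean difference of ATF6α-cn from control was -0.44 (SE 0.34, 95% interval -1.22 to 0.33, adjusted p = 0.728 by limma) with both arrays, and 0.12 without replicate 2. ATF6β-cn lay above both other groups with differences of 0.16 from control and 0.60 from ATF6α-cn (adjusted p = 0.894 and 0.639 by limma), and the second of these was 0.04 without ATF6α-cn replicate 2.

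Tef, a second factor of the family, was at 4.66 and 4.95 in control, 4.53 and 3.70 in ATF6α-cn, and 4.86 and 4.40 in ATF6β-cn. All of these lay below the background level, so Tef was the member of the 10 whose mean signal did not exceed it and its differences are of signals near the floor of the array. ATF6α-cn lay below both control arrays (log2 difference -0.69, SE 0.31, adjusted p = 0.574 by limma), and at -0.28 without replicate 2.

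Hlf, the third factor, was at 7.25 and 6.76 in control, 7.44 and 6.27 in ATF6α-cn, and 7.24 and 7.29 in ATF6β-cn. The ATF6α-cn pair held both the highest and the lowest of the 6 arrays. Its mean difference from control was therefore small, -0.15 (SE 0.37, 95% interval -0.98 to 0.69, adjusted p = 0.933 by limma), and was 0.44 without replicate 2.

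Per1, a repressor that also answers within minutes to hormones and stimulation, was at 8.60 and 9.01 in control, 9.12 and 8.28 in ATF6α-cn, and 9.07 and 9.94 in ATF6β-cn. ATF6β-cn lay above control on both arrays (log2 difference 0.69, SE 0.37, 95% interval -0.15 to 1.53, adjusted p = 0.465 by limma), with replicate 2 the highest of the 6. ATF6α-cn replicate 2 was the lowest, and the mean difference of that line from control was -0.11 (adjusted p = 0.953 by limma), or 0.31 without it.

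Per2, its close relative, was at 7.82 and 8.51 in control, 9.23 and 7.61 in ATF6α-cn, and 8.50 and 7.97 in ATF6β-cn. The ATF6α-cn arrays were again the highest and the lowest of the 6, and their gap of 1.62 was the widest between replicates of any of the 10 genes. The mean differences from control were 0.25 in ATF6α-cn and 0.07 in ATF6β-cn (SE 0.49 for each, adjusted p = 0.910 and 0.973 by limma). Without ATF6α-cn replicate 2 the first was 1.06, and without replicate 1 it was -0.56.

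Cry1, a repressor whose peak is known to come later in the cycle than those of Per1 and Nr1d1, was at 7.64 and 7.85 in control, 7.74 and 7.47 in ATF6α-cn, and 7.38 and 7.72 in ATF6β-cn. It varied least of the 10, and it was the exception to the pattern: ATF6α-cn replicate 2 was neither its highest nor its lowest array. Its mean differences from control were -0.14 and -0.20 (SE 0.23, adjusted p = 0.888 and 0.785 by limma), with 95% intervals that did not reach 1 log2 unit in either direction (-0.68 to 0.39 and -0.73 to 0.34).

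Nr1d1, which encodes REV-ERBα and is switched on by BMAL1 and CLOCK like Dbp, was at 10.62 and 10.85 in control, 10.76 and 11.85 in ATF6α-cn, and 11.57 and 11.55 in ATF6β-cn. Both ATF6β-cn arrays and ATF6α-cn replicate 2 were high, and both control arrays and ATF6α-cn replicate 1 were low. The difference of ATF6β-cn from control was 0.83 (SE 0.34, 95% interval 0.06 to 1.59, unadjusted p = 0.0367, adjusted p = 0.325 by limma), a 1.77-fold difference between pairs that each agreed within 0.23. In ATF6α-cn it was 0.57 (SE 0.34, adjusted p = 0.654 by limma), and 0.03 without replicate 2. On ATF6α-cn replicate 2 Nr1d1 was thus high while Dbp, Tef and Hlf were low. The Nr1d1 gene overlaps the end of Thra, a thyroid hormone receptor gene read from the opposite strand and named after its values were seen. Thra was at 10.37, 9.84, 9.72, 10.28, 10.07 and 9.97 in the same array order, with all 3 groups overlapping.

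Nr1d2, which encodes REV-ERBβ, was at 13.66 and 13.30 in control, 13.68 and 12.81 in ATF6α-cn, and 13.29 and 13.92 in ATF6β-cn. It did not follow Nr1d1: ATF6α-cn replicate 2 was its lowest array, 0.48 below the lowest of the others. The mean differences from control were -0.23 in ATF6α-cn and 0.12 in ATF6β-cn (SE 0.34, adjusted p = 0.873 and 0.919 by limma), and 0.21 in ATF6α-cn without replicate 2.

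**Figure D2:**
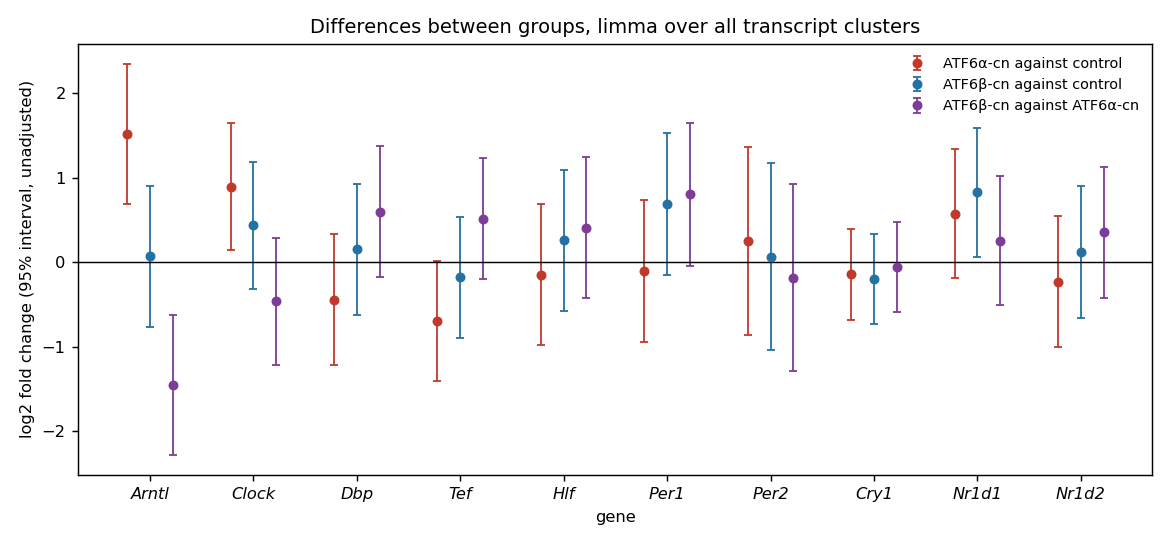
Log2 fold change (y axis) of each clock gene (x axis) in the 3 comparisons, as points with 95% intervals of the limma fit that are not adjusted for the number of clusters. The intervals of Arntl (0.69 to 2.35) and Clock (0.14 to 1.65) in ATF6α-cn against control, of Nr1d1 (0.06 to 1.59) in ATF6β-cn against control and of Arntl (-2.28 to -0.62) in ATF6β-cn against ATF6α-cn lie off 0, and no gene passed after adjustment.

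Read across genes, ATF6α-cn replicate 2 was the highest or the lowest of the 6 arrays for 9 of the 10 clock genes, 3 times the highest and 6 times the lowest. Over all clusters the same array was at an end for 32.9%. Every other array was at an end for 1 to 3 of the 10 genes. Against the mean of the other 5 arrays it was 1.80 higher for Arntl, 1.12 for Clock and 0.78 for Nr1d1. It lay below that mean for the other 7 genes, with differences of -1.09 for Dbp, -0.98 for Tef, -0.92 for Hlf, -0.87 for Per1, -0.80 for Per2, -0.76 for Nr1d2 and -0.20 for Cry1. ATF6α-cn replicate 1 was the highest array for Hlf and Per2 and at an end for no other.

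The arrays of the ATF6α-cn pair differed by over 1 log2 unit for 5 of the 10 genes, namely Arntl, Dbp, Hlf, Per2 and Nr1d1, against 2.96% of all clusters in that group. In control and in ATF6β-cn the pair differed by that much for 0 of the 10 genes, against 3.46% and 2.29% of all clusters. The median gap over the 10 genes was 0.99 in ATF6α-cn (range 0.27 to 1.62), 0.33 in control (highest 0.69) and 0.45 in ATF6β-cn (highest 0.87), while that over all clusters was 0.26, 0.26 and 0.25. The replicates of ATF6α-cn, the group with the largest difference from control, were thus the least alike in these genes.

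**Figure D3:**
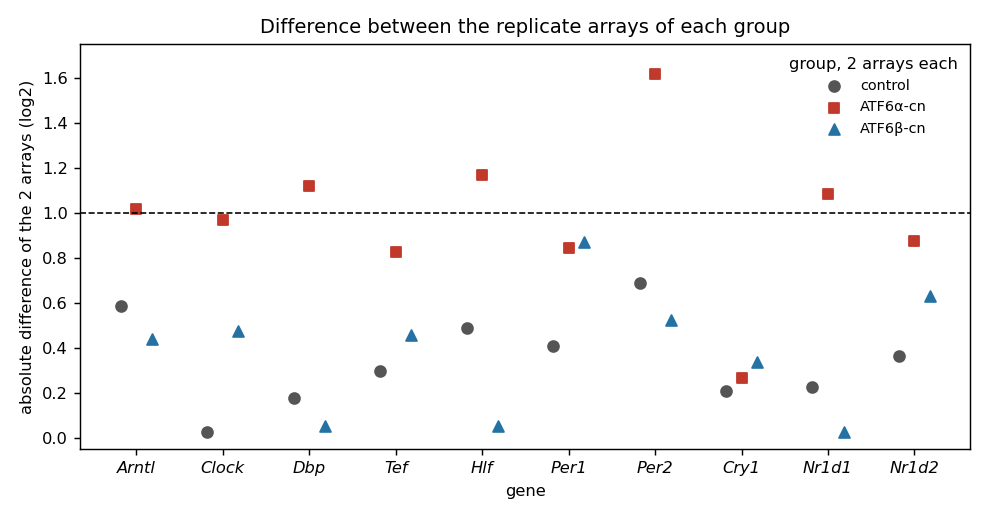
Absolute log2 difference between the 2 replicate arrays (y axis) of each clock gene (x axis) in control (circles), ATF6α-cn (squares) and ATF6β-cn (triangles), with the dashed line at 1 log2 unit. In ATF6α-cn 5 genes lie above the line and the median is 0.99, while all genes of the other groups lie below it, at most 0.87.

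Counted by arrays that did not overlap, Arntl and Clock were higher and Tef was lower in both ATF6α-cn arrays than in both controls (3 of 10, against 39.5% of all clusters in either direction). In ATF6β-cn 4 genes, Clock, Dbp, Per1 and Nr1d1, were above both controls (4 of 10, against 44.4%). Between the lines Dbp was higher and Arntl lower in ATF6β-cn (2 of 10, against 39.7%). Each of these shares was below that of all clusters.

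The balance of the loop was described on each array by the mean of the activators minus the mean of Dbp, Tef, Hlf and Nr1d1, after each gene was centred on its mean over the 6 arrays. It was -0.57 and -0.34 in control, 0.18 and 1.68 in ATF6α-cn, and -0.51 and -0.43 in ATF6β-cn. Both ATF6α-cn arrays lay above the other 4, with the second far above the first. By group it was -0.46 ± 0.16 in control, 0.93 ± 1.06 in ATF6α-cn and -0.47 ± 0.05 in ATF6β-cn (SD, n = 2 arrays each), so the difference between ATF6α-cn and the others was of the size of its own replicate spread. It has no test, since it sums over genes that were picked together. The activators made most of it: they were at 0.22 and 1.22 in ATF6α-cn and between -0.63 and -0.23 on the other arrays. The outputs were at 0.05 and -0.46 in ATF6α-cn, -0.06 and 0.00 in control, and 0.28 and 0.19 in ATF6β-cn. Since Nr1d1 moved with the activators on ATF6α-cn replicate 2, leaving it out raised the value of that array to 2.05, with the outputs then at -0.83, and it left ATF6α-cn replicate 1 at 0.02.

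**Figure D4:**
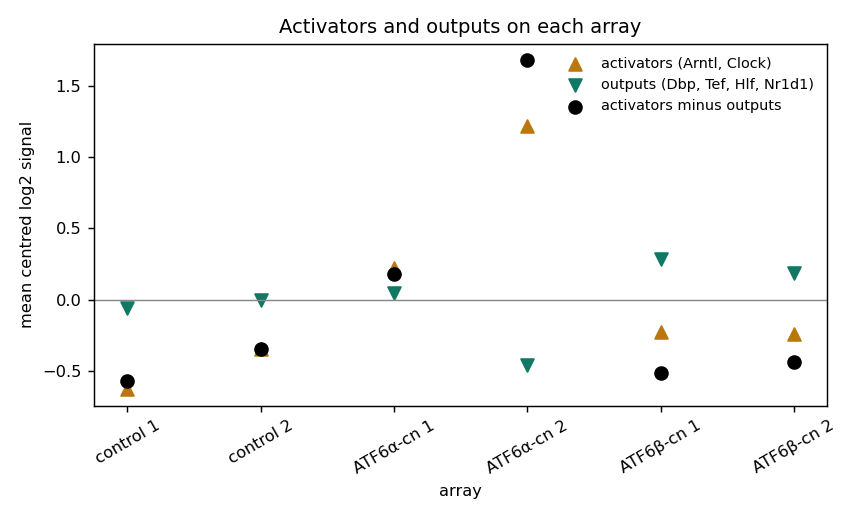
Mean centred log2 signal (y axis) of the activators (upward triangles), of the outputs (downward triangles) and their difference (circles) on each array (x axis). ATF6α-cn 2 shows the activators at 1.22, the outputs at -0.46 and a difference of 1.68, and the 4 control and ATF6β-cn arrays show differences from -0.57 to -0.34.

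The 12 other core clock genes gave 1 call over the 3 comparisons, against 0.0946%, 1.1% and 0.27% of all clusters. It was Rorb, of the ROR family, in ATF6β-cn against control (log2 difference 2.75, SE 0.51, adjusted p = 0.0478 by limma), read by a cluster with no mapped position in its name, at 5.77 and 4.07 in control, 5.67 and 4.74 in ATF6α-cn, and 7.57 and 7.77 in ATF6β-cn. The call did not stand when an array was left out, except without control replicate 1 (adjusted p = 0.0196 by limma), and the second cluster of Rorb, at 3.97 to 5.22 on all arrays, was not called (log2 difference 0.68, adjusted p = 0.264 by limma). With each gene read by its cluster of highest mean signal, next in size was Bhlhe41, a repressor of CLOCK and BMAL1, which differed by 0.72 between ATF6β-cn and ATF6α-cn (adjusted p = 0.327 by limma), by 0.52 without ATF6α-cn replicate 2, and was at 10.86 on ATF6α-cn replicate 2 and 11.26 to 11.82 on the others. Ciart, a further repressor, differed by -0.70 in ATF6β-cn against control (adjusted p = 0.457 by limma), with ATF6β-cn replicate 1 at 7.29 and the other arrays at 8.17 to 8.81. Of the 2 further clusters of Rora, also of the ROR family, the one without a mapped position in its name, which the main cluster lacks too, differed by 1.36 in ATF6β-cn and 1.07 in ATF6α-cn from control (adjusted p = 0.0717 and 0.363 by limma), while the main cluster of Rora differed by 0.15 and -0.49. Per3 and Cry2, named after their values were seen, were lowest on ATF6α-cn replicate 2, as Per1 and Per2 were, at 8.93 against 9.18 to 10.40 for Per3 and at 9.43 against 10.21 to 10.44 for Cry2. That array was at an end for 5 of the 12 genes, against 32.9% of all clusters, and ATF6β-cn replicate 2 for 6 of the 12, against 34.1%. The median log2 differences from control were 0.08 in ATF6α-cn and 0.13 in ATF6β-cn, against -0.03 and -0.02 over all clusters.

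**Figure D5:**
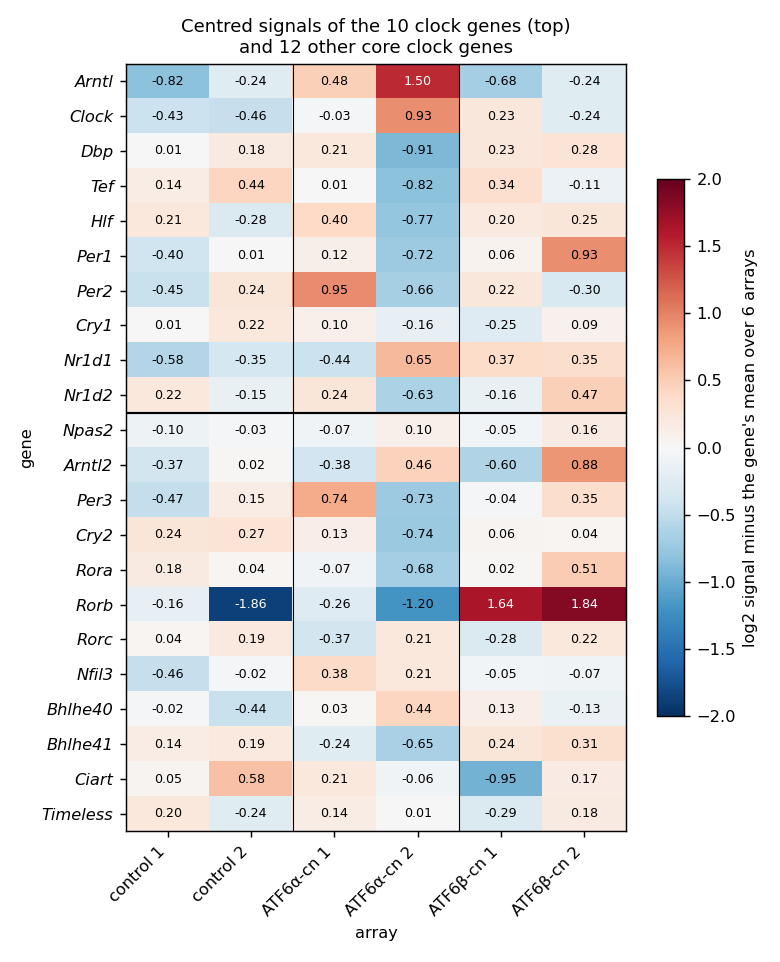
Centred log2 signal (colour, the signal minus the gene's mean over the 6 arrays, also printed in each cell) of the 10 clock genes above the line and the 12 other core clock genes below it (y axis) on each array (x axis). The column of ATF6α-cn 2 holds Clock at 0.93 and, above it, Arntl as its most positive value, beside Dbp at -0.91, Tef at -0.82 and Hlf at -0.77.

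Of 11 kinases and ubiquitin ligases or proteases that act on clock proteins, 0 were called in any comparison, with 1, 1 and 1 of 11 at an unadjusted limma p under 0.05 in the 3 comparisons, against 8.92%, 13.9% and 9.67% of all clusters. The largest differences were those of Csnk2b, a casein kinase subunit (-0.80 in ATF6β-cn against control, adjusted p = 0.233 by limma), Usp2, a rhythmic deubiquitinase (-0.70 in ATF6α-cn against control, adjusted p = 0.596, and -0.14 without ATF6α-cn replicate 2), and Fbxl21 (0.62 in ATF6α-cn against control, adjusted p = 0.459). The mean signal of Fbxl21, 4.94, lay below the background level, so its difference is of signals near the floor of the array. Usp2, like Dbp, was lowest on ATF6α-cn replicate 2, at 12.21 against 13.06 to 13.55 on the others. In ATF6β-cn, however, Usp2 lay below both controls (log2 difference -0.38), while Dbp lay above them (0.16).

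A list of 21 clock-controlled genes of heart and other tissues holds Tef and Hlf as well. Against control 0 of them were called in ATF6α-cn and 1 in ATF6β-cn, against 0.0946% and 1.1% of all clusters. That gene was Kcnip2, a potassium channel subunit whose rhythm in the heart is set through KLF15, which fell in ATF6β-cn by 1.89 on the log2 scale against control (adjusted p = 0.0074 by limma) and by 1.53 against ATF6α-cn (adjusted p = 0.0438). It was at 13.36 and 13.48 in control, 13.23 and 12.89 in ATF6α-cn, and 11.45 and 11.60 in ATF6β-cn. Left out singly, control replicate 2 and each ATF6β-cn array ended the call against control (adjusted p = 0.0686 to 0.0791 by limma), and each of the 6 arrays ended the call against ATF6α-cn (adjusted p = 0.0806 to 0.277). Some targets were low on ATF6α-cn replicate 2 like Dbp, among them, named after their values were seen, Wee1, a cell cycle kinase gene with E-boxes (9.07, 1.05 below the lowest of the others), Nampt, a gene of NAD synthesis (12.40 against 13.28 to 13.48), and Klf15 (6.44 against 7.15 to 8.36). Others were high there, with Cdkn1a, a cell cycle inhibitor, at 10.17 against 6.50 to 7.50 and Pdk4, a kinase that spares glucose, at 15.11 against 11.83 to 13.92. Over the list this array was the highest for 5 and the lowest for 8 of 21 genes, Tef and Hlf among the 8. It was at an end for 32.9% of all clusters.

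Of other gene groups, the immediate early and glucocorticoid-induced lists had their highest mean on ATF6α-cn replicate 2, and the fasting and temperature-responsive lists did not. The part of these groups in the clock result was not tested. Of 17 immediate early genes, which respond within minutes to stimulation or stress, that array was the highest for 11 and the lowest for 2. It had Egr1 at 13.20 against 8.48 to 12.44, Nr4a3 at 11.23 against 5.59 to 7.98 and Btg2 at 11.27 against 7.97 to 9.67. The mean centred signal of that list was 0.80 on it, 0.37 on ATF6β-cn replicate 2 and between -0.52 and -0.20 on the others. No gene of the list was called in any comparison, with 7, 2 and 2 of 17 genes at an unadjusted limma p under 0.05, against 8.92%, 13.9% and 9.67% of all clusters. The 14 glucocorticoid-induced genes, among them Per1, were at 0.50 on ATF6α-cn replicate 2, 0.37 on ATF6β-cn replicate 2 and -0.40 to -0.04 on the others. Cdkn1a (centred signal 2.49), Pdk4 (1.97) and Mt2 (1.46) raised the mean of ATF6α-cn replicate 2 most. Among the genes below their own mean there were Per1 (-0.72) and Fkbp5 (-0.02). Cdkn1a and Pdk4 are also in the list of clock-controlled genes, and Pdk4 is in the fasting list as well. ATF6α-cn replicate 2 was the highest array for 6 of the 14 and the lowest for 2. On it Mt2, a metallothionein, was at 14.60 against 11.58 to 14.00. Fkbp5, a defining target, was at 9.84 there, within the 9.57 to 10.13 of the others. The 10 fasting genes were at 0.09 on ATF6α-cn replicate 2, against -0.43 to 0.39 on the others, and the 9 measured temperature-responsive genes at 0.10, against -0.21 to 0.22. The largest difference of the fasting list was that of Pdk4 (1.38 in ATF6β-cn against control, adjusted p = 0.528 by limma) and that of the temperature list Hspb1, a small heat shock protein (-0.95 in ATF6β-cn against ATF6α-cn, adjusted p = 0.360, and -0.48 without ATF6α-cn replicate 2).

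The cell type markers were compared in the same way. In whole ventricle, fewer cells of a type and less RNA per cell cannot be told apart. Endothelial markers were at a mean log2 signal of 11.68 on ATF6α-cn replicate 2 and 10.86 to 11.20 on the others, and it was the highest array for 5 of the 6 measured, Pecam1, Tek and Tie1 among them. Fibroblast markers were at a mean of 11.66 there, 12.23 on ATF6β-cn replicate 2 and 11.14 to 11.53 on the others. ATF6α-cn replicate 2 was the highest array for 1 of the 7 measured, Postn, and the lowest for 3, Dcn, Lum and Fbln1. Fbln1, an extracellular matrix gene, was called in ATF6β-cn against control (log2 difference 1.75, adjusted p = 0.0393 by limma) and against ATF6α-cn (2.02, adjusted p = 0.0472). Leaving out a control or an ATF6β-cn array singly ended both of these calls, and leaving out ATF6α-cn replicate 2 ended the one against ATF6α-cn (adjusted p = 0.237 by limma). Leukocyte markers were at 7.80 on ATF6β-cn replicate 2 and 7.30 to 7.39 on the others, including ATF6α-cn replicate 2. The smooth muscle and pericyte list ranged from 10.05 to 10.62, with no array of ATF6α-cn at the top. Of the atrial list, Myl7 was below background on all arrays (3.90 to 4.44) and Nppa, which stressed ventricle also makes, was at 18.49 on ATF6α-cn replicate 2 and 15.51 to 17.25 on the others. Myl4 went the other way, at 6.43 on ATF6α-cn replicate 2 and 6.95 to 7.23 on the others. Sln (4.82 to 5.57) and Fgf12 (4.56 to 5.48) lay near the background level. Fat markers Adipoq, Plin1, Cfd, Lep and Ucp1 were below the background level on every array, while Cidea was at 8.24 to 9.64, and the 2 measured red cell genes ranged from 6.46 to 7.63 in mean. The part of these markers in the clock result was not tested. The hour of collection is not stated. Between groups, hour and genotype therefore cannot be told apart, and between the replicates of ATF6α-cn, which share their genotype, the part of the hour was not tested.

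The genes whose array pattern was most like that of the activators were taken by the root mean square difference of centred signals over the 6 arrays, among single-gene clusters above background. They were Gm21738 (0.19 log2 units), Vsig2 (0.21), 8430408G22Rik (0.21), Dll4, a Notch ligand of endothelium (0.22), and 4930578C19Rik (0.22). Dll4 was at 9.93 and 10.10 in control, 10.28 and 11.26 in ATF6α-cn, and 10.02 and 9.75 in ATF6β-cn, so its pattern too rested on the high signal of ATF6α-cn replicate 2. The mean pattern of the 4 outputs spanned 0.75 log2 units, below the 1 unit required, and no genes are named for it.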

How the data were processed

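Total RNA of mouse ventricles was hybridised to Affymetrix Clariom S arrays, 2 per group. The authors deposited log2 signals per probe set that were already normalized across the arrays. Affymetrix Expression Console is listed in the notes of the submitters, with no settings stated. The deposited sheets that compare each line with control give signed fold changes and p-values, of which neither was used: only their gene symbols were.

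Of 28846 probe sets, 6640 controls were left out and 22206 clusters were tested with no filter (836 match several genes and 3 have no symbol). A linear model with 1 mean per group was fitted to all 6 arrays with limma 3.58.1 (R 4.3.3; 3 residual and 5.63 prior degrees of freedom), with Benjamini-Hochberg adjustment in each comparison. Precision is limited by the number of arrays. The p-values measure the spread between mice pooled over all 3 groups, not that of the compared groups alone. A wide ATF6α-cn pair thus also enters the SEs of ATF6β-cn against control. For Nr1d1 the SDs were 0.16 in control, 0.77 in ATF6α-cn and 0.02 in ATF6β-cn. The fit was tested on simulated data. Alternatives were quantile normalization, equal medians, a filter on dim probe sets, a variance trend with a robust prior, array weights and a replicate block. Further alternatives were the 4 arrays of a comparison only, each array left out, a Student t-test and, added after seeing the data, unadjusted limma p.

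The 10 genes and all lists were chosen with earlier results of these data known. Named are all 10, of each other list the genes called and otherwise the 3 with the largest difference (fewer where they bear on no clock result), the defining markers of cell types, and the 5 genes most like each pattern; others are marked. Promoter windows come from RefSeq (GRCm38.p6) and were searched on both strands.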

Additional observations from a re-analysis of the deposited data

How the results depend on the processing

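No clock gene was called under any alternative that adjusts p, the lowest adjusted p being 0.105, and the activator minus output values moved by less than the pooled replicate SD of 0.62 under all 54 recalculations (1.396 to 2.05 on ATF6α-cn replicate 2, -0.09 to 0.44 on ATF6α-cn replicate 1). That SD came mostly from the ATF6α-cn pair (1.06, against 0.16 in control and 0.05 in ATF6β-cn), so it is a wide limit for the other groups. The value of ATF6α-cn replicate 1 changed sign within it. Unadjusted limma p called 2, 1 and 1 of the 10 genes (1981, 3077 and 2147 of all clusters), in the order of the 3 comparisons, the ATF6α-cn line and the ATF6β-cn line against control and then the lines against each other. A Student t-test called 0 clusters after adjustment, and unadjusted 1522, 2266 and 1633, with 1 clock gene in ATF6β-cn against control. Of all clusters, the numbers called were 21, 244 and 60, and changed to 61, 686 and 257 with a variance trend and robust prior, to 389 (ATF6β-cn against control) and 93 (between the lines) without dim probe sets, to 38 with quantile normalization and 36 with 4 arrays between the lines, and to 13 with 4 arrays in ATF6α-cn against control. With 1 array left out they ranged from 9 to 13, 41 to 190 and 9 to 36. The replicate numbers did not pair the arrays (correlations of deviations 0.01, 0.02 and -0.02), and the replicate block gave 16, 189 and 27 called clusters and no clock gene. With 1 array left out the sign reversed at least once for 15 of 30 log2 differences. In ATF6α-cn against control these were Dbp (-1.001 to 0.12), Hlf (-0.73 to 0.44), Per1 (-0.53 to 0.31), Per2 (-0.56 to 1.06) and Nr1d2 (-0.67 to 0.21), in ATF6β-cn against control Arntl (-0.22 to 0.36), Tef (-0.40 to 0.0508), Per2 (-0.28 to 0.41) and Nr1d2 (-0.19 to 0.44), and between the lines Clock (-0.94 to 0.026), Hlf (-0.18 to 0.99), Per2 (-0.99 to 0.63), Nr1d1 (-0.29 to 0.80), Nr1d2 (-0.0827 to 0.79) and Cry1 (-0.22 to 0.12). With 1 array left in a group, it is assumed to vary like the others. The cause of these changes was not tested beyond the smaller number of arrays. Tef, below background, has the least informative signal.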
